A study of Arabidopsis thaliana with 8 samples.

Results

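The EARLI1-type cluster is a run of tandem loci on chromosome 4 of Arabidopsis thaliana that encode small secreted proteins of the lipid transfer family. It was examined here as 8 listed loci: AT4G12470 (AZI1), AT4G12480 (EARLI1), AT4G12490, AT4G12500, AT4G12510, AT4G12520, AT4G12545 and AT4G12550 (AIR1). Of these 8 loci, 2 had a probeset annotated to a single gene, AT4G12490 and AT4G12500, out of 13286 named loci on the array. Each had 1 such probeset, so no choice between probesets was needed. AT4G12510 and AT4G12520 were read together by 1 shared probeset, which is described separately. AZI1, EARLI1, AT4G12545 and AIR1 were not analysed here. The cluster was chosen by the difference of AT4G12500 between the mutant per1 and the wild type averaged over both media, so all differences between the genotypes are given below as descriptions with no test.

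Proteins of this type carry a signal peptide, a proline-rich stretch and a C-terminal domain with a pattern of 8 cysteines that forms a hydrophobic pocket. AZI1 is known for its part in systemic acquired resistance, where azelaic acid primes defence. EARLI1 was first described as an aluminium-induced transcript and has been linked to cold tolerance, and AIR1 was isolated as an auxin-induced transcript of root cultures. Members lie next to each other and resemble each other in sequence, so a probeset may also read related transcripts. Probe sequences were not used here, and the amount of such cross-reading was not tested.

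RNA came from roots of plants grown on agar for 10 days with control medium and then moved for 10 h to phosphate-free (Pi-free) or fresh control medium. Arrays of the mutant per1 from Pi-free and from control medium, and of the wild type Col-0 from the same media, made 4 groups of 2 arrays. The labels give Col-0 as the ecotype of both genotypes and describe the 2 arrays of a group as biological replicates, without the number of plants in a sample. The mutant per1 is known from the literature for root hairs that fail to lengthen when phosphate is short and for a mutation in UBP14, a ubiquitin-specific protease gene that was not analysed here.

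Values are the deposited probeset signals on a linear scale, and their 2% trimmed mean was 500.0 on each array. Array medians ran from 186.2 to 197.1. Control probesets for bacterial transcripts that were not spiked in reached at most 26.1 to 43.4 per array. Replicate arrays ranked the probesets alike, with Spearman correlations up to 0.982 within a group. Root hair genes, which mark root tissue, gave clear signals on all arrays. Differences are of log2(signal + 16), with a standard error (SE) from limma. It pools a probeset's spread over all 8 arrays and then draws it toward that of probesets with similar signal. For AT4G12500 and AT4G12490 this made the SE smaller than their own arrays alone would give. For the shared probeset it made the SE larger.

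AT4G12500, which encodes an EARLI1-like protein, was lower in per1 than in Col-0 in both media, and more so than the other members measured. In Pi-free medium its signal was 428.3 and 538.0 on the per1 arrays, against 1267 and 1807 on the Col-0 arrays. In control medium it was 604.6 and 853.3 on the per1 arrays, against 1394 and 2826 on the Col-0 arrays. All 4 per1 arrays lay below all 4 Col-0 arrays. The per1 mean was 31.4% of the Col-0 mean in Pi-free medium and 34.5% in control medium.

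As a log2 difference of per1 minus Col-0, AT4G12500 stood at -1.62 ± 0.30 in Pi-free medium and at -1.45 ± 0.30 in control medium (SE, n = 2 arrays per group). The average over both media, -1.54 ± 0.22, was the value that chose the cluster. It was number 3 from the lowest among the 13286 named loci. The value in control medium depended on 1 wild-type array: without the Col-0 control array of replicate 2 it was -0.94.

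AT4G12490, the locus next to it, was also lower in per1, by a smaller amount. In Pi-free medium its signal was 1290 and 1396 in per1, against 2005 and 3400 in Col-0. In control medium it was 1476 and 2013 in per1, against 2863 and 4653 in Col-0. Within each medium both per1 arrays lay below both Col-0 arrays, while the highest per1 array in control medium lay slightly above the lowest Col-0 array in Pi-free medium. The per1 mean was 49.7% of the Col-0 mean in Pi-free medium and 46.4% in control medium.

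The log2 difference of per1 minus Col-0 for AT4G12490 was -0.95 ± 0.27 in Pi-free medium and -1.08 ± 0.27 in control medium (SE, n = 2 arrays per group). The average over both media was -1.01 ± 0.19. Without the Col-0 Pi-free array of replicate 2 the value in Pi-free medium was -0.57. Both single-gene members had per1 below Col-0 with no overlap in both media, an order that 7.06% of all 22746 probesets showed. Since the genotype difference chose the cluster, nothing is read from that count.

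**Figure D1:**
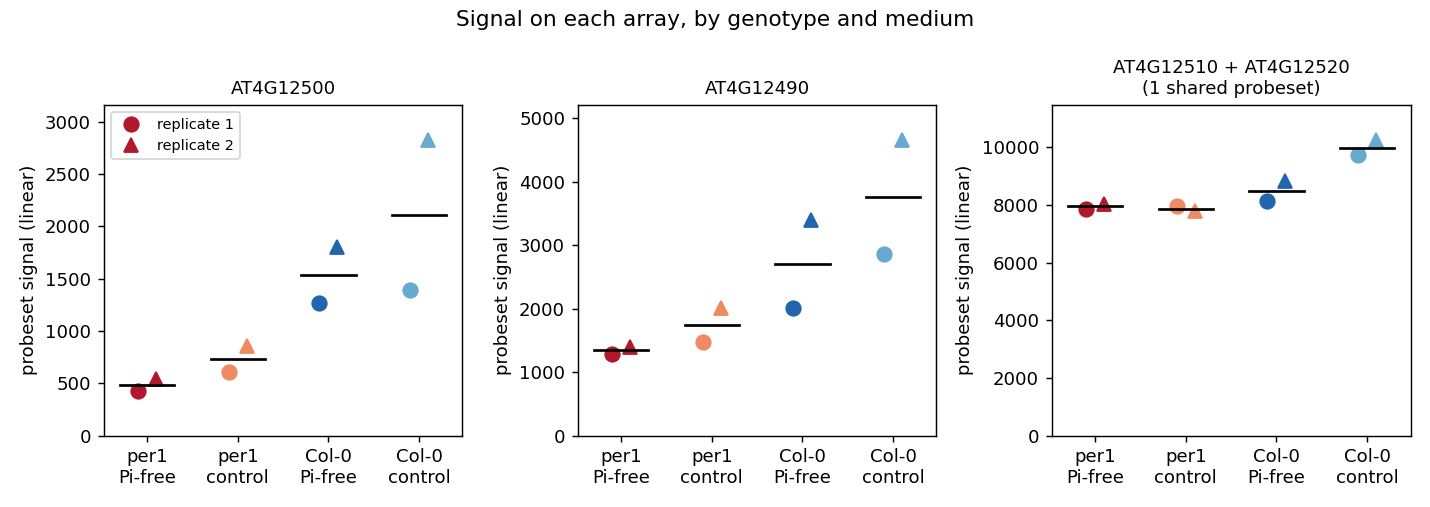
Signal of AT4G12500, AT4G12490 and the probeset shared by AT4G12510 and AT4G12520 on each of the 8 arrays (y axis, linear probeset signal from 0; circles replicate 1, triangles replicate 2, black lines group means; y scales differ between panels). AT4G12500 lies at 428.3 to 853.3 on the per1 arrays and at 1267 to 2826 on the Col-0 arrays, while the shared probeset stays between 7779 and 10247.

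The probeset shared by AT4G12510 and AT4G12520 differed far less between the genotypes. In Pi-free medium its signal was 7858 and 8043 in per1, against 8151 and 8832 in Col-0. In control medium it was 7965 and 7779 in per1, against 9723 and 10247 in Col-0. The groups did not overlap in either medium, but in Pi-free medium the nearest arrays of the genotypes were close together. The log2 difference was -0.09 ± 0.10 in Pi-free medium and -0.34 ± 0.10 in control medium (SE, n = 2 arrays per group), and the per1 mean was 93.6% of the Col-0 mean in Pi-free medium and 78.8% in control medium. Leaving out 1 of the Pi-free Col-0 arrays moved the value in that medium to -0.15 without replicate 1 and to -0.04 without replicate 2. How the signal divides between the 2 loci, and how close so bright a probeset is to the top of the array's range, was not tested.

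The Pi responses did not enter the choice of the cluster and were tested. Of the 2 single-gene members limma called 0 in either genotype at an adjusted p under 0.05, and 0 had an unadjusted p under 0.05. Over the whole array it called 0.0044% of probesets in per1 and 0.0615% in Col-0. In per1, AT4G12500 averaged 483 ± 77.6 in Pi-free medium and 729 ± 176 in control medium (SD, n = 2). Its log2 change was -0.57 ± 0.30 with an adjusted p of 1.0 from limma, and the 95% interval ran from -1.25 to 0.12. In Col-0 it averaged 1537 ± 382 in Pi-free medium and 2110 ± 1012 in control medium (SD, n = 2). The change there was -0.39 ± 0.30 with a limma adjusted p of 0.81 and an interval from -1.07 to 0.29. Without the Col-0 control array of replicate 2 the Col-0 change was 0.12, so the direction of this difference of group means depended on that array. Between Col-0 arrays of the same replicate number the change was -0.14 for replicate 1 and -0.64 for replicate 2.

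AT4G12490 averaged 1343 ± 75.2 in Pi-free medium and 1744 ± 380 in control medium in per1 (SD, n = 2). Its change was -0.36 ± 0.27 with a limma adjusted p of 1.0, and the 95% interval ran from -0.96 to 0.25. In Col-0 it averaged 2703 ± 987 in Pi-free medium and 3758 ± 1266 in control medium (SD, n = 2). The change was -0.48 ± 0.27 with a limma adjusted p of 0.74 and an interval from -1.09 to 0.13. It depended on single arrays: it was -0.10 without replicate 1 and -0.86 without replicate 2 of the Pi-free arrays, and -0.83 without replicate 1 and -0.13 without replicate 2 of the control arrays. For both members the Pi-free arrays of per1 lay below both control arrays of per1, an order shown by 14.5% of all probesets. In Col-0 the arrays of the 2 media overlapped for both members, while 17.5% of all probesets had the Pi-free arrays below the control arrays without overlap. Within each replicate number of each genotype, both members had the Pi-free array below the control array. That order was shown by 6.96% of all probesets.

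The shared probeset of AT4G12510 and AT4G12520 stood at 0.01 ± 0.10 in per1 and at -0.23 ± 0.10 in Col-0, with limma adjusted p of 1.0 and 0.63. Its Col-0 arrays did not overlap between the media, and the unadjusted p from limma there was 0.046, with an interval from -0.46 to -0.0048. Neither difference passed the test after adjustment.

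Averaged over the genotypes, AT4G12500 stood at -0.48 ± 0.22 after Pi withdrawal and AT4G12490 at -0.42 ± 0.19 on the log2 scale (SE). The limma adjusted p was 0.79 for both, with unadjusted p of 0.052 and 0.055 from limma. The 95% intervals ran from -0.96 to 0.01 for AT4G12500 and from -0.85 to 0.01 for AT4G12490. In this comparison 0 of 2 members were called, with 0 at an unadjusted p under 0.05, where 0.127% of all probesets were called. Leaving out single Col-0 arrays moved these values by over 1.5 times. AT4G12500 was at -0.73 without the control array of replicate 1 and at -0.22 without that of replicate 2. AT4G12490 was at -0.24 without the control array of replicate 2 and at -0.23 without the Pi-free array of replicate 1.

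The interaction asked whether the Pi response of a member differed between per1 and Col-0. It was -0.18 ± 0.43 for AT4G12500, 0.12 ± 0.38 for AT4G12490 and 0.25 ± 0.14 for the shared probeset, with limma adjusted p of 0.98, 0.99 and 0.92. The 95% intervals were wide, from -1.14 to 0.79 for AT4G12500 and from -0.74 to 0.98 for AT4G12490. With 2 arrays per group, differences in response within those intervals are compatible with the data. The interval ends are not a limit of detection. Limma called 0.00879% of all probesets for the interaction and 0 of the 2 members, with 0 members at an unadjusted p under 0.05.

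**Figure D2:**
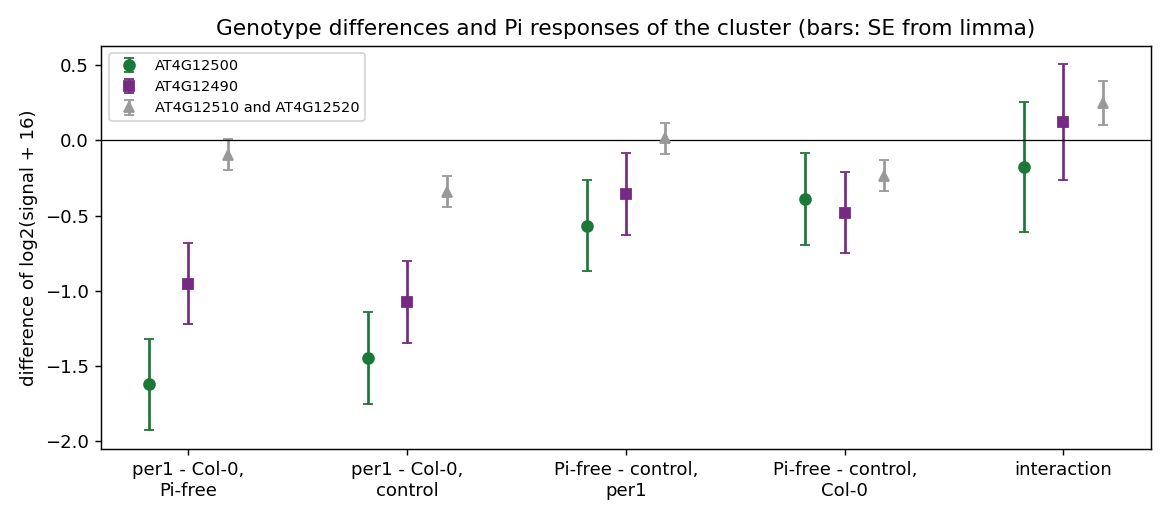
Log2 differences (y axis, log2(signal + 16)) for the genotype difference in each medium, the Pi response in each genotype and the interaction, with bars of 1 SE from limma on either side; circles are AT4G12500, squares AT4G12490 and triangles the shared probeset of AT4G12510 and AT4G12520. The genotype differences of AT4G12500, at -1.62 and -1.45, are the largest in size of those plotted, and the Pi responses lie between -0.57 and 0.01.

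The spread between replicate arrays was wide for the single-gene members. On the Col-0 control arrays AT4G12500 differed 2.03-fold between replicates, and AT4G12490 differed 1.63-fold. On the Pi-free Col-0 arrays the ratios were 1.43 for AT4G12500 and 1.70 for AT4G12490. The within-group SD on the log2 scale was 0.45 for AT4G12500 and 0.40 for AT4G12490, against a median of 0.15 over the 11373 probesets in the upper part of the signal range. Only 0.633% and 1.23% of those probesets had a larger one. The shared probeset had a within-group SD of 0.05.

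The array of replicate 2 was the higher one in each of the 4 groups for both single-gene members, an order that 8.72% of all probesets showed. The 25S ribosomal RNA control probeset was also higher on the replicate 2 array in each group. It read 88.4 and 241.8 on the Pi-free per1 arrays, against 51.8 and 143.4 on the Pi-free Col-0 arrays, for replicates 1 and 2. In control medium it read 99.7 and 203.5 in per1, against 47.0 and 117.2 in Col-0. Between the genotypes this control overlapped in both media, though within each replicate number the per1 array read higher than the Col-0 array. Its part in the members' values was not tested.

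AT4G12490 and AT4G12500 followed each other closely from array to array. Pearson's r of their log2 signals over the 8 arrays was 0.98, and 0.94 once each group's mean was taken out. Arrays of a group share a genotype and a medium, and resemblance between the transcripts may also let the probesets read some of the same RNA, so these are descriptions. The shared probeset had r of 0.83 with AT4G12500 and 0.88 with AT4G12490.

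As a further description of the values that chose the cluster, the log2 ratio of AT4G12500 to AT4G12490 was -1.56 and -1.35 on the Pi-free per1 arrays, against -0.66 and -0.91 on the Pi-free Col-0 arrays. In control medium it was -1.27 and -1.22 in per1, against -1.03 and -0.72 in Col-0. The ratio was lower on all 4 per1 arrays than on any Col-0 array. Since AT4G12500 was chosen for its genotype difference, nothing is read from this order, and the ratio does not give the level of one transcript relative to the other.

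**Figure D3:**
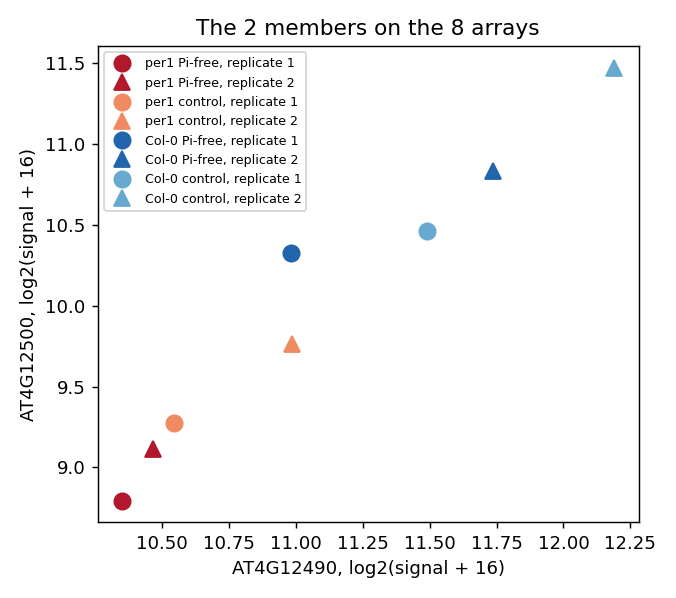
Log2(signal + 16) of AT4G12500 (y axis) against AT4G12490 (x axis) on the 8 arrays, coloured by group, with circles for replicate 1 and triangles for replicate 2. The 4 per1 arrays lie at the lower left and the Col-0 control array of replicate 2 at the upper right.

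Averaged over the media, the other named loci of this stretch differed less between the genotypes than AT4G12490 and AT4G12500. Since that average chose the cluster through AT4G12500, nothing is read from this contrast. The 14 other named loci with identifiers between AT4G12340 and AT4G12700, a window set after the annotation was read, had per1 minus Col-0 differences averaged over the media between -0.38 and 0.40. Their median was -0.04, against -0.01 over all probesets. In Pi-free medium alone AT4G12540 stood at 1.01 ± 0.24, larger in size than AT4G12490 there (-0.95) and opposite in direction. In control medium AT4G12540 stood at -0.22 ± 0.24. Of these 14, 2 had per1 below Col-0 in both media without overlap, an order held by 7.06% of all probesets. AT4G12530 and AT4G12540 lie, by identifier, between the members AT4G12520 and AT4G12545. AT4G12530, a further lipid transfer protein gene, gave signals of at most 35.9 in per1 and 39.8 in Col-0. These lie within or near the range of the control probesets without target, so its level was not measured reliably. SKU5 (AT4G12420), a gene for a cell wall glycoprotein of directional root growth, comes before all 8 loci by identifier. It read 4563 and 4190 in Pi-free per1, against 4099 and 4192 in Pi-free Col-0.

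AT4G12540, close to AT4G12530 in the same stretch, had a pattern of its own. Its signal was 142.3 and 116.2 in Pi-free per1, against 74.6 and 82.2 in control per1. In Col-0 it was 54.3 and 56.9 in Pi-free medium, against 96.3 and 92.2 in control medium. The 2 genotypes moved in opposite directions without overlap between media, an order shown by 2.97% of all probesets, and the interaction was 1.24 ± 0.35 with a limma adjusted p of 0.91, so it did not pass the test.

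**Figure D4:**
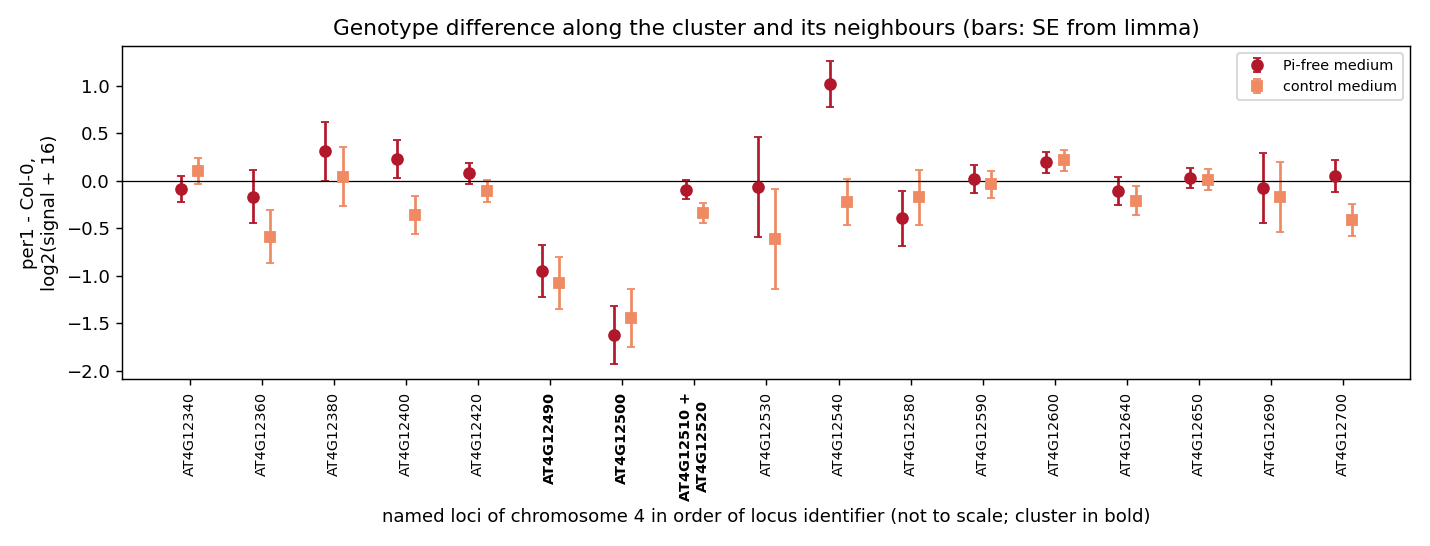
Per1 minus Col-0 difference (y axis, log2(signal + 16), bars 1 SE from limma) in Pi-free medium (circles) and control medium (squares) for the named loci of this stretch of chromosome 4, in the order of their identifiers and not to scale. AT4G12490 and AT4G12500 lie between -0.95 and -1.62, and the next lowest value is -0.61, for AT4G12530 in control medium. The highest value is 1.01, for AT4G12540 in Pi-free medium.

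Related genes elsewhere in the genome were compared as lists. Of 22 listed proteins with the same cysteine pattern or EARLI1-like sequence outside the 8 loci, 10 were measured, AT4G12530 among them. After Pi withdrawal 5 of the 10 were above 0 and 5 below 0 in per1, and 4 were above 0 and 6 below 0 in Col-0. The medians were 0.04 in per1 and -0.10 in Col-0, against 0.02 and 0.00 over all probesets, and limma called 0 of the 10 in either genotype, with 2 at an unadjusted p under 0.05 in each. For per1 minus Col-0 the median of the list was -0.13 in Pi-free medium and -0.28 in control medium, against 0.00 and -0.02 over all probesets. Single values ran from -1.09 to 0.66. The lowest, of AT2G10940 in control medium, rests on per1 signals of 10.3 and 10.5, below the largest signal of the control probesets without target, so it is no reliable difference.

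AT4G22460 and AT4G22470, EARLI1-like loci of another tandem group on chromosome 4, were the members of that list with per1 below Col-0 in both media without overlap. Over all probesets 7.06% showed that order. AT4G22470 read 116.4 and 123.1 in Pi-free per1, against 201.0 and 200.1 in Pi-free Col-0, and 172.3 and 164.0 in control per1, against 279.5 and 368.7 in control Col-0. Its Pi responses were -0.44 in per1 and -0.64 in Col-0, with limma adjusted p of 1.0 and 0.49. AT4G22460 read 561.3 and 646.3 in Pi-free per1, against 788.4 and 1001 in Pi-free Col-0, and 808.8 and 978.1 in control per1, against 1010 and 1181 in control Col-0. Its Pi responses were -0.55 in per1 and -0.29 in Col-0, with limma adjusted p of 0.94 and 0.72. For both genes the Pi-free arrays lay below the control arrays in each genotype. Over all probesets 14.5% showed that order in per1 and 17.5% in Col-0. For AT4G22460 in Col-0 the nearest arrays of the 2 media were close, at 1001 and 1010. Its Col-0 change was smaller in size than those of AT4G12500 (-0.39) and AT4G12490 (-0.48), whose Col-0 arrays overlapped, so no contrast in response is read from this.

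AT2G45180, which encodes another protein with the 8-cysteine domain, ran the other way between the genotypes. It read 1593 and 1493 in Pi-free per1, against 1198 and 1107 in Pi-free Col-0, and 1808 and 1886 in control per1, against 1321 and 1029 in control Col-0. AT4G22610 read 1176 and 947.0 in Pi-free per1, against 1739 and 2355 in Pi-free Col-0, while the control arrays overlapped between the genotypes.

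Of 16 listed lipid transfer proteins of the LTP, DIR1 and LTPG families, 4 were measured, and limma called 0 of them after Pi withdrawal in either genotype, with 0 at an unadjusted p under 0.05. Their median difference of per1 minus Col-0 was 0.12 in Pi-free medium and -0.03 in control medium, against 0.00 and -0.02 over all probesets. AT2G15325 reached at most 28.2 in per1 and 30.1 in Col-0, at the level of the control probesets without target. With AT5G48490 also near them, these medians rest partly on such signals. AT5G01870, a classical lipid transfer protein gene, stayed at 11180 and 11272 in Pi-free per1, against 10477 and 10122 in Pi-free Col-0. AT2G18370, of the same family, read 2200 and 2009 in Pi-free per1, against 1908 and 1960 in Pi-free Col-0. AT5G48490, related to the resistance protein DIR1, reached at most 67.7 in per1 and 49.2 in Col-0, near the controls without target.

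Because AIR1 is known as an auxin-induced gene, 23 auxin genes were listed, of which 6 were measured. Limma called 0 of the 6 after Pi withdrawal in either genotype, with 1 at an unadjusted p under 0.05 in each. Their median difference of per1 minus Col-0 was -0.14 in Pi-free medium and 0.37 in control medium. IAA29, GH3.1, GH3.3 and LBD29 each had arrays near the control probesets without target, so these medians rest partly on such signals. GH3.3, an enzyme that joins auxin to amino acids, stood at 0.18 in per1 and 0.90 in Col-0 after Pi withdrawal, with limma adjusted p of 1.0 and 0.61. Its Col-0 control signals, 22.8 and 42.3, lay near the control probesets without target, so the Col-0 change was not measured reliably. LBD29 (AT3G58190), a transcription factor of the same pathway as LBD16, stood at -0.91 in per1 and -0.03 in Col-0, with limma adjusted p of 1.0 and 0.99. Its per1 signals were 18.6 and 34.1 in Pi-free medium, against 50.8 and 75.6 in control medium, so the Pi-free arrays lay near the control probesets without target. WES1 (AT4G27260), an enzyme of the same family as GH3.3, stood at -0.22 in per1 and 0.15 in Col-0, with limma adjusted p of 1.0 and 0.85. LBD16, a transcription factor of lateral root initiation, stood at 0.33 in per1 and -0.05 in Col-0, with limma adjusted p of 1.0 and 0.98. Of 24 listed genes of systemic acquired resistance and the salicylic acid response, 0 had a named probeset, so they were not analysed here.

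**Figure D5:**
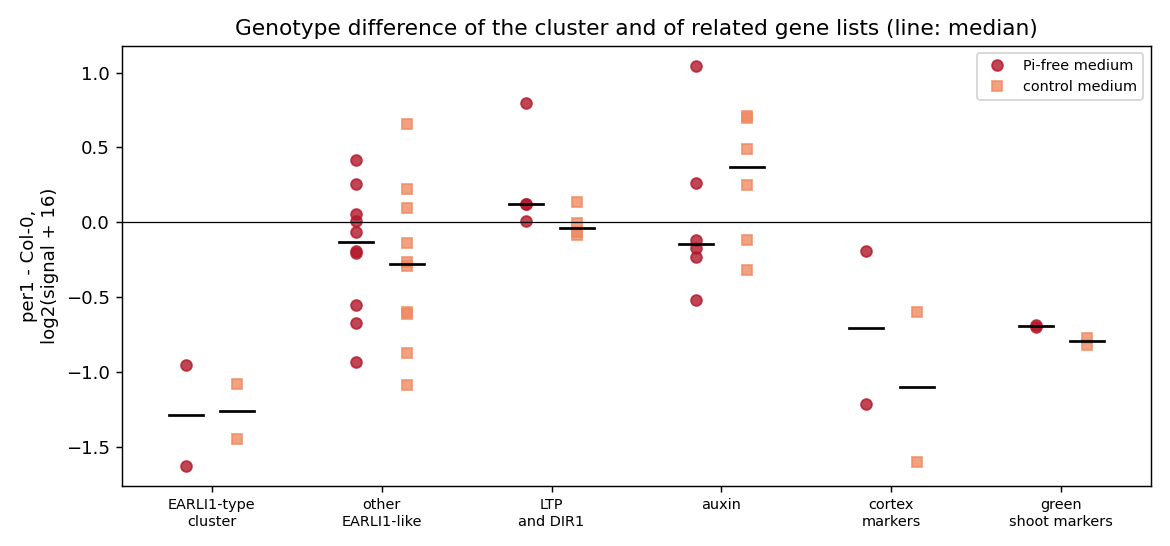
Per1 minus Col-0 difference (y axis, log2(signal + 16)) of the 2 single-gene members, of related gene lists and of the cortex and green shoot markers, in Pi-free medium (circles) and control medium (squares), with black lines at the medians. The shared probeset and the endodermis, stele and root hair markers are not plotted. AT1G62500 appears both among the EARLI1-like genes and among the cortex markers. The other EARLI1-like genes spread from -1.09 (AT2G10940 in control medium, with per1 signals at background) to 0.66 around medians of -0.13 and -0.28, and the green shoot markers lie between -0.82 and -0.69.

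Summed markers of green shoot tissue and of cortex were lower in per1 than in Col-0, like the members, while the endodermis and stele markers overlapped between the genotypes. Of 13 markers of green shoot tissue 2 were measured, RCA (Rubisco activase) and LHCB4.1 (a light-harvesting protein), and their summed signal was 283.3 to 341.9 in per1 and 468.0 to 621.3 in Col-0. Both were above 0 on all arrays, and both had per1 below Col-0 without overlap in both media. Over all probesets 7.06% showed that order. The 2 cortex markers, AT1G09750 and AT1G62500, summed to 431.8 to 488.4 in per1 and 733.3 to 1150 in Col-0. AT1G09750 had per1 below Col-0 without overlap in both media. AT1G62500, itself one of the 10 EARLI1-like genes, did so only in control medium. In Pi-free medium AT1G62500 read 249.8 and 201.4 in per1, against 340.8 and 195.6 in Col-0. The 1 measured of 8 endodermis markers, AT4G28100, ranged from 433.1 to 488.7 in per1 and from 384.4 to 568.2 in Col-0. The 1 measured of 6 stele markers, XTH20, ranged from 1740 to 1995 in per1 and from 1668 to 2243 in Col-0. Of 7 root hair genes 3 were measured: the expansins EXPA7 and EXPA18, and the peroxidase gene AT4G26010. Their summed signal was 4328 and 4277 in Pi-free per1, against 6331 and 6162 in Pi-free Col-0, and 5868 and 6873 in control per1, against 7060 and 5919 in control Col-0. Like AT4G12500 and AT4G12490, all 3 had the Pi-free arrays of per1 below its control arrays, an order shown by 14.5% of all probesets. The part of these tissues in the members' values was not tested, and in whole roots fewer cells of a type and less RNA per cell cannot be told apart.

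The genes whose pattern was most like that of AT4G12500 were ranked by Pearson's r over the 8 arrays, among 324 other named loci with a mean above the median of all probesets and a log2 range of at least 1. AT4G12490 ranked as number 1 with r of 0.98. Outside the cluster the next were AT4G08410, an extensin gene of the cell wall, with r of 0.96, AT1G67870 and SP1L2 (AT1G69230, related to the microtubule protein SPIRAL1), both with r of 0.95, and AT2G19310 and AT1G01170, both with r of 0.94. AT4G08410 read 1242 and 1503 in Pi-free per1, against 2559 and 2907 in Pi-free Col-0, and 1526 and 1680 in control per1, against 2262 and 2834 in control Col-0. Its probeset can detect related transcripts. SP1L2 read 353.2 and 319.9 in Pi-free per1, against 530.1 and 568.1 in Pi-free Col-0, and 287.1 and 398.9 in control per1, against 545.5 and 746.2 in control Col-0. The 8 arrays hold 4 groups of 2 and share their genotype, medium and replicate structure, so such an r is a description.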

How the data were processed

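The deposited table holds linear probeset signal intensities from Affymetrix GeneChip arrays, 1 column per array. Per the labels' protocols, total RNA was purified on columns, copied and labelled by transcription in vitro, and fragmented. How probes were summarised, background-corrected and scaled is not stated in those protocols. The labels' titles and source names gave the groups. Their description field names an iron medium instead and was not used.

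Of 22810 probesets, 64 controls were left out. The platform annotation gave 1 gene for 13513 of the rest, of which 13436 matched a TAIR10.1 locus through gene identifiers. The signals were taken as log2(signal + 16) and fitted by group means with an intensity trend in limma (version 3.58.1, R version 4.3.3), which left 4 residual degrees of freedom. The p-values and 95% intervals also used the degrees of freedom that limma gained from the spread of the other probesets. P-values were adjusted by Benjamini-Hochberg over all 22746 probesets and called under 0.05. The number of arrays limits the precision. The fit was tested on simulated data.

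Members and lists were chosen with earlier results of these data known. Each member is named. List members are those with the smallest p in a comparison or with the order described, and some were picked after their values were seen. The 5 genes most like AT4G12500 were taken by Pearson's r. The alternatives were other added values, normalizations and filters, no trend, a replicate block and each array left out.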

Additional observations from a re-analysis of the deposited data

Results flagged for a closer look

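Among the neighbouring loci, 3 had Pi-free arrays above all control arrays in per1 but below all control arrays in Col-0, with no overlap in either genotype, an order that 2.97% of all probesets showed. The response in per1 minus the response in Col-0 was 1.24 for AT4G12540, 0.46 for AT4G12700 and 0.42 for AT4G12360. The per1 signals of AT4G12360, 37.1 and 42.1 in Pi-free medium against 35.8 and 35.2 in control medium, lie within the range of the control probesets without target, so its movement in per1 was not measured reliably. None passed the interaction test, with limma adjusted p of 0.91, 0.92 and 0.95. No such opposite movement was seen for AT4G12500, AT4G12490 or the probeset shared by AT4G12510 and AT4G12520. Groups of 2 arrays are too small to single out an outlying array.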

How the results depend on the processing

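Over the 15 alternatives run, 0 of the 2 single-gene members were called in any Pi comparison, with limma adjusted p of 0.21 to 1.0. Over all probesets same-numbered arrays did not deviate together, with correlations of 0.00 to 0.08 between groups, so the numbers were not taken as pairs. For both single-gene members, however, replicate 2 was the higher array in all 4 groups. With a replicate block the SE of a Pi response was 0.15 for both members, 2 of 2 had an unadjusted p under 0.05 in each genotype, and 0 were called (limma adjusted p of 0.38 to 0.93). Averaged over the genotypes, 2 of 2 had an unadjusted p under 0.05 with the block, with 1 added in place of 16, with a common median, with a filter at a mean signal of 50, and without per1 control replicate 1, Col-0 Pi-free replicate 2 or Col-0 control replicate 1. With the block, calls over all probesets were 31 for the Pi response in Col-0 and 4 in per1, against 14 and 1 without it. Calls over all alternatives were 0 to 6 for the Pi response in per1, 1 to 42 in Col-0, 2 to 70 averaged and 0 to 2 for the interaction.

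The median difference of the 2 members between per1 and Col-0 in control medium was -1.26, and ran from -1.69 to -0.83 when each array was left out; these ends come from leaving out the Col-0 control array of replicate 1 and of replicate 2. For AT4G12500 the Pi response in Col-0 ran from -0.89 to 0.12 and the interaction from -0.68 to 0.33 when each array was left out. The interaction of AT4G12490 ran from -0.26 to 0.50. The Pi response of the shared probeset in per1 ran from -0.0028 to 0.031 when each array was left out, and was -0.022 with arrays scaled to a common median. By Spearman correlation, 3 of the 5 genes outside the cluster most like AT4G12500 stayed among the first 5 outside it. All other alternatives kept the direction of each member's difference. No member had several single-gene probesets, so the choice of the dimmer one could not be tried.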
